A study of Homo sapiens with 18 samples.

Results

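Collagen-modifying hydroxylases and lysyl oxidases were examined in HCT116, an established human colorectal carcinoma line of epithelial type, grown to low and to high density. The genes were taken by symbol from the P4H, PLOD and LOX families, and all 10 (P4HA1, P4HA2, P4HA3, P4HB, PLOD1, PLOD2, PLOD3, LOX, LOXL1 and LOXL2) were among the 38055 genes listed. Whole cell RNA of wild-type (WT) cells was sequenced on day 3, at 50% confluency, and on day 5, at 250% confluency, with 3 libraries labelled as biological replicates per day. All cells were of 1 line in the same serum-containing medium with no treatment, and the methods state that fresh medium was given daily from day 2, so day in culture and density cannot be told apart. Day 7 whole transcriptome values were not analysed here. The labels do not say what separated the replicates beyond their number. The p-values therefore weigh the difference between days against the spread among these libraries only.

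Collagen chains are modified in the endoplasmic reticulum before they are secreted. Prolyl 4-hydroxylases, made of catalytic alpha subunits (P4HA1 to P4HA3) and the protein disulfide isomerase P4HB, hydroxylate prolines that hold the triple helix together, and lysyl hydroxylases (PLOD1 to PLOD3) hydroxylate lysines that later carry sugars and crosslinks. Outside the cell, lysyl oxidases (LOX and its relatives LOXL1 and LOXL2) oxidize lysines so that fibres crosslink. Hydroxylases of both kinds need oxygen, iron and 2-oxoglutarate, and several genes of the group are known targets of the hypoxia-inducible factors (HIF).

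The libraries held between 27470978 and 56689369 reads on genes, and the deepest and the shallowest were both from day 3. Values below are the authors' normalised reads, in which 1 read was worth between 0.618 and 1.42. Epithelial markers were present, with summed values of 30472 to 45213 on day 3 and 67664 to 69902 on day 5, although CDX1 was close to 0. The 5 fibroblast markers found summed to 57.9 to 96.4 on day 3 and 150 to 180 on day 5, of which ACTA2 made most, and DCN, THY1 and FAP averaged under 5 on both days. CDH5 (endothelial) and PTPRC (blood) had at most 3 reads in any library. What part other cells had in the results was not tested, and in such bulk RNA a smaller number of cells cannot be told from less RNA per cell.

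Of the 10 genes, 7 rose from day 3 to day 5, none fell, 2 did not pass the test and LOX was too low to test. The test was limma on log2(value + 1), the scale of all fold changes given, with Benjamini-Hochberg adjustment over the 20129 genes whose value reached 10 in 3 or more libraries. In the same fit 29.3% of all genes tested were higher at an adjusted p under 0.05, 27.6% were lower and 56.9% differed in either direction. All 7 also rose at least 2-fold, which 10.2% of all genes tested did. The median log2 fold change of the 9 tested enzymes was 1.90, beside 0.01 over all genes tested, whose quartiles were -0.49 and 0.53. In the same 7 genes every day 5 library lay above every day 3 library, as in 33.4% of all genes tested; the days did not overlap, in either direction, in 65.0%.

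**Figure D1:**
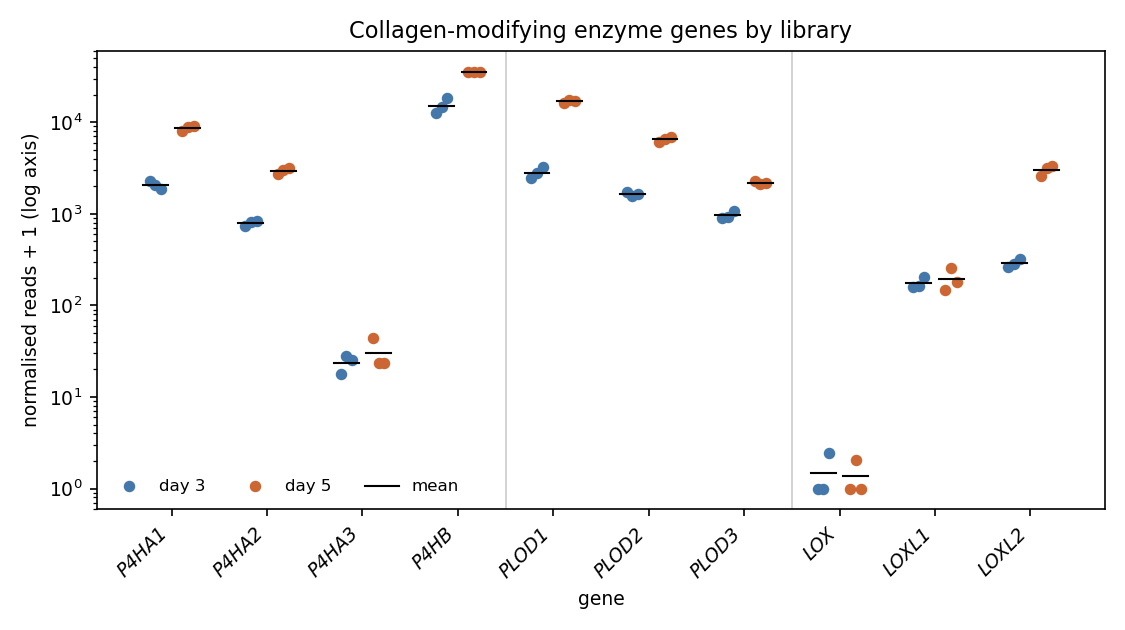
Normalised reads plus 1 (log axis) of each gene in each library, with day 3 in blue, day 5 in orange and the mean of 3 libraries as a bar. The days are apart for 7 genes, overlap for P4HA3 and LOXL1, and LOX lies at or next to 0 in all 6 libraries.

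P4HA1, the main catalytic alpha subunit in these cells (ENSG00000122884; chromosome 10, from 73007217 to 73096974 on the minus strand, GRCh38), had values of 2306, 2042 and 1857 in the day 3 libraries and 7967, 8825 and 9088 in the day 5 libraries. The lowest day 5 library was 3.45 times the highest day 3 library. The fitted change was 4.18-fold, with a 95% interval from 3.47 to 5.04 (log2 fold change 2.06, standard error 0.11, limma adjusted p = 0.000165). P4HA2, an alternative alpha subunit on chromosome 5 (ENSG00000072682; from 132190147 to 132295315), stood at 740, 811 and 828 on day 3 and at 2743, 3024 and 3149.95 on day 5. It therefore rose by nearly the same factor, 3.74-fold with an interval from 3.20 to 4.37 (log2 fold change 1.90, limma adjusted p = 0.000146). P4HA3, the third alpha subunit (ENSG00000149380; chromosome 11, from 74235801 to 74311640), was listed at 16.7, 27.2 and 24.1 on day 3 and at 43.4, 22.5 and 22.8 on day 5. These values came from 17 to 44 reads and the days overlapped. The fitted ratio was 1.26 with an interval from 0.749 to 2.11 (limma adjusted p = 0.392). These libraries do not tell apart ratios within that interval.

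P4HB, the beta subunit that also works as a free disulfide isomerase, had the highest level of the 10 genes on both days per kilobase of MANE Select transcript, a single reference transcript per gene (ENSG00000185624; chromosome 17, from 81843159 to 81860856). It went from 12519, 14531 and 18369 on day 3 to 35143, 35779 and 35389 on day 5. The day 3 libraries were spread widely, at 15140 ± 2972 (SD, n = 3), while the day 5 libraries lay close together at 35437 ± 321 (SD, n = 3). A wider spread on day 3 was not particular to P4HB. Between pairs of libraries, the chi-square of reads per gene was 11.1 to 22.0 on day 3 and 4.145 to 5.46 on day 5. The change of P4HB was 2.37-fold, with an interval from 1.84 to 3.05 (log2 fold change 1.25, limma adjusted p = 0.000893). That interval lies below those of P4HA1 and P4HA2.

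The mix of alpha and beta subunit transcripts was compared on values divided by the length of the annotated exons. The summed alpha subunits were 0.732, 0.572 and 0.417 of P4HB on day 3 and 0.905, 0.982 and 1.02 on day 5, so the days did not overlap. On the log2 scale the mean ratio was higher by 0.79 on day 5 (two-sided exact permutation p = 0.1). No smaller p is possible with 3 libraries per day. The level of the ratio depended on the length used. Divided by the length of the MANE Select transcript, it averaged 0.156 ± 0.0407 on day 3 and 0.262 ± 0.0162 on day 5 (SD, n = 3 each), with a log2 difference of 0.78. Per length of annotated exons, P4HA1 made up 88.7% ± 1.71 of the alpha subunit level on day 3 and 90.3% ± 0.112 on day 5 (SD, n = 3 each; two-sided exact permutation p = 0.4), and the libraries of both days overlapped. That overlap rested on day 3 replicate 1 (90.6%), without which the day 3 libraries lay below all day 5 libraries and the exact permutation p was 0.1. The difference of 1.52 percentage points was smaller than the SD of the day 3 libraries. P4HA3 made up at most 0.912% of the alpha subunit level in any library on that scale, and at most 1.29% with MANE Select lengths.

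PLOD1 showed the largest rise among the hydroxylases. This lysyl hydroxylase acts mainly on lysines within the triple helix, and its gene (ENSG00000083444) occupies 11934205 to 11975538 of chromosome 1, plus strand. Its values were 2445, 2759 and 3243 on day 3 and 16288, 17338 and 17295 on day 5, and the lowest day 5 library was 5.02 times the highest day 3 library. The fitted change was 6.06-fold, with an interval from 4.95 to 7.43 (log2 fold change 2.60, limma adjusted p = 0.00014), which ranked 87 among the 20129 log2 fold changes.

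PLOD2, known for hydroxylating lysines in the ends of fibrillar chains outside the helix, lies on chromosome 3 (ENSG00000152952; from 146035139 to 146163725). It was at 1734, 1573 and 1660 on day 3 and at 6027, 6646 and 6962 on day 5, a change of 3.95-fold with an interval from 3.39 to 4.60 (log2 fold change 1.98, limma adjusted p = 0.00014). LNCSRLR, a noncoding gene that overlaps PLOD2 on the same strand, averaged 20.7 on day 3 and 73.0 on day 5, far below PLOD2, and reads shared by both genes cannot be told apart. PLOD3, which also carries collagen glycosyltransferase activity (ENSG00000106397; chromosome 7, from 101205977 to 101218420), rose least of the PLOD genes. Its values were 895, 919.8 and 1066 on day 3 and 2269, 2139 and 2152 on day 5. The change was 2.28-fold with an interval from 1.94 to 2.68 (log2 fold change 1.19, limma adjusted p = 0.000293), and that interval overlaps neither that of PLOD1 nor that of PLOD2.

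PLOD1 took a larger share of the lysyl hydroxylase transcripts in every day 5 library than in any day 3 library. Per length of annotated exons, PLOD1 made up 62.4%, 65.7% and 66.9% of the summed PLOD level on day 3 and 79.0%, 79.6% and 79.1% on day 5. PLOD2 went from 14.2% ± 1.87 to 11.2% ± 0.48 and PLOD3 from 20.9% ± 0.48 to 9.59% ± 0.633 (SD, n = 3 each). For each of these shares the days did not overlap, and the two-sided exact permutation p was 0.1, again the smallest possible. The PLOD1 and PLOD3 shares, like the LOXL1 and LOXL2 shares below, were chosen after the values were seen. With MANE Select lengths PLOD2 took a larger part, 25.7% ± 2.91 on day 3 and 21.2% ± 0.819 on day 5, because many annotated PLOD2 exons lie outside that transcript (14518 bases against 3749). PLOD1 then went from 54.6% ± 2.96 to 69.4% ± 0.396 and PLOD3 from 19.7% ± 0.175 to 9.44% ± 0.658.

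**Figure D2:**
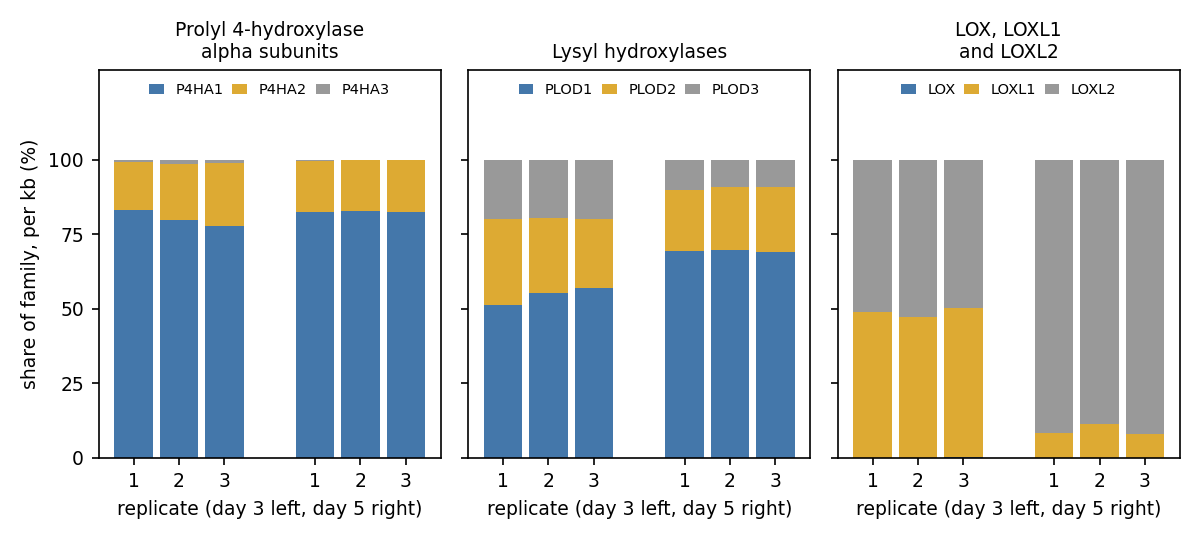
Share of each gene in each library, in percent of the summed values, per kilobase of MANE Select transcript, of the genes in its panel. Day 3 replicates are on the left and day 5 replicates on the right of each panel. LOXL3 and LOXL4 are not counted among the lysyl oxidases shown. P4HA1 stays between 77.8% and 83.2% of the alpha subunits, PLOD1 averages 54.6% of the PLOD level on day 3 and 69.4% on day 5, and LOXL2 is at most 52.6% of the lysyl oxidases shown on day 3 and at least 88.6% on day 5.

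LOXL2 had the largest change of the 10 genes. This secreted lysyl oxidase, encoded on chromosome 8 (ENSG00000134013), was at 263, 286 and 323 on day 3 and at 2584, 3173 and 3298 on day 5. All day 5 libraries lay far above all day 3 libraries. The fitted change was 10.3-fold with an interval from 8.26 to 12.9 (log2 fold change 3.37, standard error 0.13, limma adjusted p = 0.000108), which ranked 27 among all genes tested. ENTPD4, which overlaps LOXL2 on the same strand, averaged 2665 on day 3, far above LOXL2, and 2993 on day 5. It did not pass (log2 fold change 0.17, limma adjusted p = 0.118). Reads shared by ENTPD4 and LOXL2 cannot be told apart.

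LOXL1, the relative best known for crosslinking elastin, lies on chromosome 15 (ENSG00000129038; from 73925989 to 73952137). It was listed at 159, 162 and 204 on day 3 and at 145, 257 and 179 on day 5, so that the days overlapped. The fitted ratio was 1.08 with an interval from 0.737 to 1.59 (log2 fold change 0.12, limma adjusted p = 0.684). Its direction rested on a single library and on the scale, with a log2 fold change of -0.11 without day 5 replicate 2 and of -0.054 with each library centred on its median. LOX itself, the founding member of the family (ENSG00000113083; chromosome 5, from 122063195 to 122078413), was practically not detected. It had 1 read in day 3 replicate 3, 1 read in day 5 replicate 2 and 0 reads in the other 4 libraries, where a count of 0 allows values of up to 1.85 to 3.25 (3 reads, counting error only). No fold change is given for it.

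LOXL1 and LOXL2 stood near an even mix on day 3, and LOXL2 made up most of these transcripts on day 5. Per length of annotated exons, LOXL2 made up 50.1%, 51.7% and 48.9% of the summed LOX, LOXL1 and LOXL2 level on day 3 and 91.5%, 88.2% and 91.8% on day 5 (two-sided exact permutation p = 0.1, the smallest possible). LOXL1 made up nearly all of the remainder, 49.7% ± 1.30 on day 3 and 9.48% ± 1.99 on day 5 (SD, n = 3 each). The share of LOX was 0.0765% ± 0.132 on day 3 and 0.0106% ± 0.0184 on day 5 (two-sided exact permutation p = 1), which rests on 1 read per day.

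**Figure D3:**
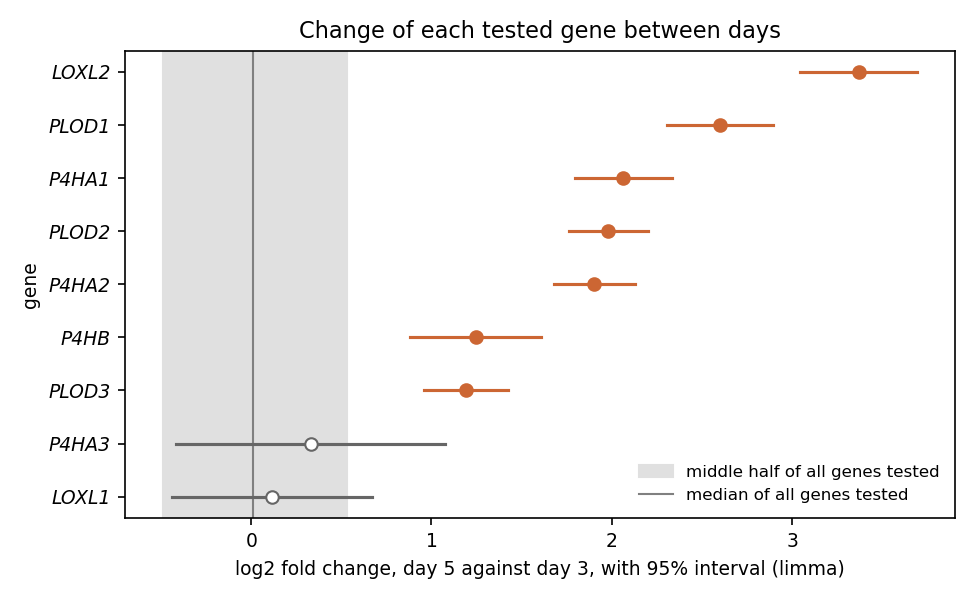
Log2 fold change of each tested gene, day 5 against day 3, with its 95% interval from limma; filled points passed an adjusted p of 0.05, and the grey band spans the quartiles of all genes tested, from -0.49 to 0.53, around their median of 0.01. LOXL2 stands highest at 3.37 and PLOD1 next at 2.60, while the intervals of P4HA3 and LOXL1 cross 0.

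Ordered by log2 fold change, LOXL2 (3.37) was followed by PLOD1 (2.60), P4HA1 (2.06), PLOD2 (1.98), P4HA2 (1.90), P4HB (1.25) and PLOD3 (1.19). The interval of LOXL2 lay above all others. The intervals of P4HA1, PLOD2 and P4HA2 overlapped one another widely, that of PLOD1 overlapped P4HA1 only at its edge (2.31 against 2.33), and those of P4HB and PLOD3 overlapped each other and lay below the rest of the risen genes.

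Levels between genes were compared as normalised reads per kilobase of MANE Select transcript. On day 3 the order was P4HB (6212 ± 1220), PLOD1 (946 ± 135), P4HA1 (754 ± 82.3), PLOD2 (442 ± 21.5), PLOD3 (340.4 ± 32.8), P4HA2 (174 ± 10.2), LOXL2 (78.1 ± 8.23), LOXL1 (74.6 ± 10.8), P4HA3 (10.0 ± 2.40) and LOX near 0 (SD, n = 3 each). PLOD1 and P4HA1 did not separate library by library, nor did LOXL2 and LOXL1, and all other neighbours did. On day 5 P4HB (14541 ± 132), PLOD1 (5704 ± 200), P4HA1 (3145 ± 214) and PLOD2 (1746 ± 127) kept the top of the order, and LOXL2, at 811 ± 102 per kilobase, had moved to the fifth place beside PLOD3 (775 ± 25.3), from which it did not separate. P4HA2 followed at 654 ± 45.8, then LOXL1 at 82.7 ± 24.5. The order turned in places with the length used. Per kilobase of annotated exons, PLOD3 (169 ± 16.3) lay above PLOD2 (114 ± 5.54) in all day 3 libraries. On day 5 PLOD1 (3191 ± 112) did not separate from P4HB (3183 ± 28.8), nor did LOXL2 (504 ± 63.7) from PLOD2 (451 ± 32.8), and PLOD1 and LOXL2 had the higher means.

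HIF binds ACGTG or GCGTG, the core of the HIF response element, in promoters of oxygen-regulated genes. For this reason short sequence windows around the core are shown for P4HA1, PLOD1, PLOD2 and LOX. These genes differ in their number of cores. P4HA1, PLOD1 and PLOD2 have a fold change, while LOX was too low to test. The core was searched on both strands in 1 RefSeq promoter window per gene on GRCh38.p14. Each window ran from 250 bases before to 50 bases after 1 annotated start, which need not be the outer end of the gene. The windows of P4HA2 (132227042 to 132227341) and PLOD2 (146161135 to 146161434) lay inside the loci given above. Other starts of the genes were not searched. CACGTG, which reads as ACGTG on both strands, occurred in none of the windows found. The promoters of 8 of the 10 genes were found, and P4HA3 and LOXL2 had no entry. Either core was present in 5 of these 8 (P4HA1, P4HB, PLOD1, PLOD2 and LOX), beside 48.4% of all 35116 promoters. The window of P4HB, with a single GCGTG, is not shown. Each window below reads 5′ to 3′ on the strand of the gene, with the core in capitals, as CACGT where ACGTG lies on the opposite strand.
P4HA1 (chr10:73096938-73096962, minus strand): tgatcgagctCACGTagcgagggct
PLOD1 (chr1:11934639-11934663, plus strand): gcgggggaggGCGTGgaggggcggg
PLOD1 (chr1:11934682-11934706, plus strand): cgggcccagtGCGTGgcagcgggac
PLOD2 (chr3:146161383-146161407, minus strand): cagaagcgctGCGTGagcctccaca
PLOD2 (chr3:146161370-146161394, minus strand): tgagcctccaCACGTagccgcaggc
PLOD2 (chr3:146161316-146161340, minus strand): aacagtccagACGTGgggcccagga
LOX (chr5:122078430-122078454, minus strand): tccctgtgcaACGTGtctgggggga
LOX (chr5:122078361-122078385, minus strand): gtccgccttgCACGTttccaatcgc
LOX (chr5:122078343-122078367, minus strand): caatcgcattACGTGaacaaatagc
LOX (chr5:122078287-122078311, minus strand): aactttgcaaACGTGccagaaagtt

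In the windows searched PLOD2 held 3 cores (3.95-fold change), PLOD1 2 (6.06-fold), and P4HA1 and P4HB 1 each (4.18-fold and 2.37-fold). P4HA2 (3.74-fold), PLOD3 (2.28-fold) and LOXL1 (fitted ratio 1.08, not past the threshold) held none. LOX held 4 but was at or next to 0 reads on both days and has no fold change. A number of 3 or more was present in 10.1% of all promoters. A link between the number of cores and the change was not tested. These matches describe letters only, and binding was not measured here.

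Other genes linked to collagen assembly went both ways. Of 25 listed genes, 23 were in the table and 22 were tested. Of these, 15 rose, 3 fell and 4 did not pass (limma, adjusted p under 0.05), with a median log2 fold change of 0.50. Over all genes tested, 29.3% rose and 27.6% fell in the same fit. The list also held relatives of the enzymes that are not known to act on collagen, and P4HTM, a prolyl 4-hydroxylase of HIF, and LOXL1-AS1, an antisense RNA, were among the 15. The largest rises were those of PCOLCE, an enhancer of procollagen C-proteinase (1.09, from 75.7 ± 13.2 to 161 ± 20.1), BMP1, that proteinase itself (1.07, from 861 ± 30.4 to 1810 ± 24.8), ADAMTS2, a procollagen N-proteinase (1.06, from 90.8 ± 10.7 to 189.6 ± 11.7), and LOXL4, a further lysyl oxidase (0.91, from 66.1 ± 8.57 to 125 ± 16.2; SD, n = 3 in each case). The 3 genes that fell act in the endoplasmic reticulum, but so do the P4H and PLOD enzymes, of which none fell. TMEM38B, a cation channel, had a log2 fold change of -1.31 (1468 ± 50.4 to 592 ± 51.4), FKBP14, a prolyl isomerase, of -0.69 (1067 ± 95.5 to 658 ± 16.7), and PPIB, the isomerase that works with the prolyl 3-hydroxylase complex, of -0.40 (10884 ± 1885 to 8165 ± 277, limma adjusted p = 0.044). P3H1 and CRTAP, the partners of PPIB in that complex, rose instead, by 0.64 (limma adjusted p = 0.00503) and 0.42 (limma adjusted p = 0.0406) on the log2 scale; both are named after their values were seen. LOXL3, the remaining lysyl oxidase, did not pass (150.5 ± 17.8 to 119 ± 20.7, limma adjusted p = 0.108).

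**Figure D4:**
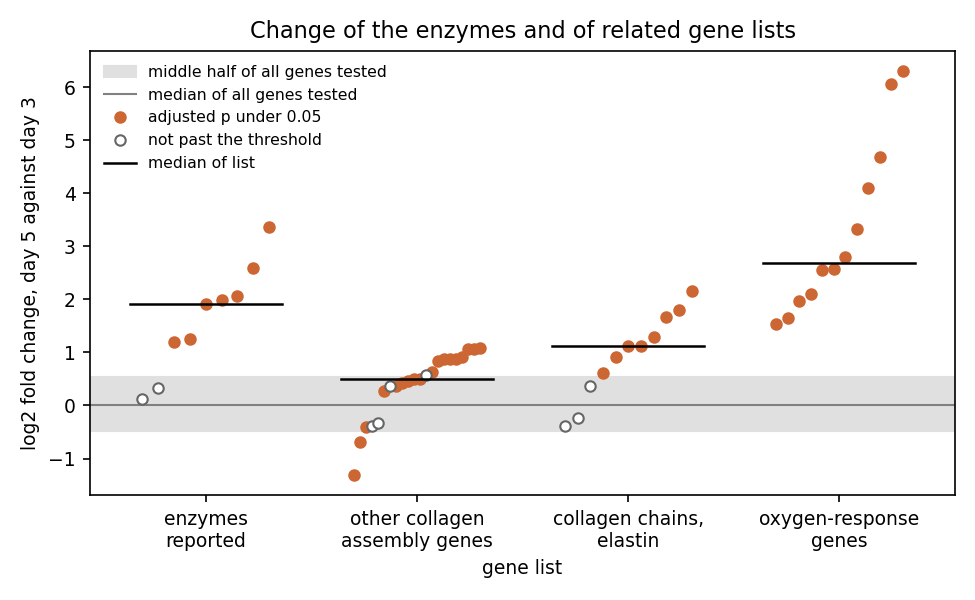
Log2 fold change, day 5 against day 3, of every tested gene of 4 lists, with list medians as black bars, genes past an adjusted p of 0.05 filled, and the quartiles and median of all genes tested in grey. The medians are 1.90 for the enzymes reported, 0.50 for other collagen assembly genes, 1.12 for collagen chains and elastin and 2.68 for oxygen-response genes, CA9 included. All 4 lists were chosen with earlier results of these data known.

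Among 13 collagen chains and elastin, the substrates of these enzymes, 11 were tested. Of these, 8 rose, none fell and 3 did not pass, with a median log2 fold change of 1.12. Over all genes tested, 29.3% rose and 27.6% fell. COL18A1 (2.15, from 791 ± 34.8 to 3511 ± 135), COL6A2 (1.79), COL6A1 (1.67) and COL17A1 (1.28) rose most (limma, adjusted p up to 0.000225), and COL4A1, COL4A2 and elastin (ELN) were under the tested level. Of 12 oxygen-response genes listed, 11 reached the tested level on both days, and all 11 rose, with a median log2 fold change of 2.56, among them ANGPTL4 (6.07), NDRG1 (4.68) and ANKRD37 (4.10; limma adjusted p up to 1e-04 for these). The remaining gene, CA9, had 1 to 3 reads per library on day 3 and entered the test through its day 5 values alone (1.92 ± 2.03 on day 3 and 199 ± 18.8 on day 5). The oxygen-response list was chosen with earlier results of these data known, and 29.3% of all genes tested rose. It moved in the same libraries as the 7 enzymes, and its part in their rise was not tested.

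Likeness of pattern was described as Pearson's r of log2(value + 1) over the 6 libraries, among 12714 other tested genes with a mean value of at least 100. Closest to P4HA1 were BNIP3L (r = 0.9997), SVIL (0.9996), SLC23A2 (0.9994), PDK1 (0.9994) and TMEM87B (0.9994). Closest to LOXL2, the enzyme with the largest change, were the unnamed gene ENSG00000229729 (0.9998), TNIK (0.9998), ANKRD37 (0.9997), VGF (0.9997) and P4HA2 (0.9997). Such values are common here, since the points share 6 libraries in 2 well separated groups, and 436 genes had an r over 0.99 with P4HA1 and 985 with LOXL2.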

How the data were processed

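Whole cell RNA libraries (rRNA-depleted, strand-specific, with UMI adapters) were analysed from 6 samples, 3 of day 3 and 3 of day 5. According to the methods, the authors trimmed the reads and mapped them strand-specifically to genes of ENSEMBL release 99 on hg38 in CLC Genomics Workbench, with TMM named as normalization; quality control used FastQC 0.11.8 and MultiQC 1.7. Whether UMIs were collapsed before counting is not given in the sources used here. As deposited, each gene has 1 normalized signal in each library, and 100% of its values were whole multiples of 1 read within a tolerance of 0.02 reads. These recovered reads numbered 27470978 to 56689369 per library and set the counting error. Columns with the authors' own fold changes, statistics and p-values, and the tables of mature miRNAs, were not used.

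Genes whose value reached 10 in 3 or more of the 6 libraries entered limma 3.58.1 (R 4.3.3) on log2(value + 1), with Benjamini-Hochberg adjustment over all genes tested. edgeR 4.0.16 and DESeq2 1.42.0 on the recovered reads, library totals, no filter, a pseudocount of 0.1, a replicate block, a 2-fold minimum and leaving out each library were alternatives; median centring and MANE Select lengths were added after seeing the data. Single ratios and shares were compared by exact permutation. Simulated data with known changes were used to check that the limma code returns them. The simulation held far fewer changed genes than were called here, with equal spread on both days. It therefore does not vouch for the calls in these data. Loci and lengths came from GENCODE release 44 on GRCh38, the authors' build but a later annotation, and promoters from RefSeq on GRCh38.p14. Other steps used Python 3.11.15, pandas 2.3.3, numpy 2.4.6 and matplotlib 3.10.9.

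All 10 family members were named. From each further list, at most the 4 largest rises and 4 largest falls past the threshold, and genes near 0, were to be named. For P4HA1 and the member with the largest change, the 5 genes most like it were named. Outside these rules, P3H1, CRTAP, LOXL3, P4HTM, LOXL1-AS1, COL1A1, COL1A2 and COL3A1 were named too, as were the overlapping genes LNCSRLR and ENTPD4. Members and lists were chosen with earlier results of these data known. Not found in the table were ADAMTS3, P4HA2-AS1, LUM and PECAM1.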

Additional observations from a re-analysis of the deposited data

How the results depend on the processing

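The 7 risen genes passed, in the same direction, under all 13 alternatives run for each, with log2 fold changes of 3.20 to 3.48 for LOXL2, 2.43 to 2.71 for PLOD1, 1.89 to 2.14 for P4HA1, 1.81 to 2.05 for PLOD2, 1.73 to 1.97 for P4HA2, 1.07 to 1.39 for P4HB and 1.02 to 1.27 for PLOD3. P4HA3 (0.03 to 0.48) and LOXL1 passed in none, and LOXL1 turned to -0.054 with median centring and lay between -0.11 (without day 5 replicate 2) and 0.30 when a library was left out; the scale and that library's value of 257 set the sign. The LOX share, on 1 read per day, differed by -0.0659 percentage points and by between -0.104 and 0.0106 when a library was left out, turning sign without day 3 replicate 3, which held the day 3 read. Over all genes, 11450 were called, between 9780 and 11300 without a library, and 3589 with a 2-fold minimum, by construction. Median centring lowered the median log2 fold change by 0.17, and 39.5% of its calls were higher, beside 51.5% in the values as deposited.

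Same-numbered libraries did not deviate together (r from -0.01 to 0.03), so the numbers were not taken as pairs. With the replicate number as a block, 10533 genes and again 7 of the 10 enzymes passed, and exact tests within the 3 numbers gave p = 0.25 for the PLOD2 share and for the ratio of alpha subunits to P4HB, the smallest that 3 pairs allow. Without day 3 replicate 3 the P4HA1 share differed by 0.768 percentage points in place of 1.52 (2.45 without day 3 replicate 1), and without day 3 replicate 1 the PLOD2 share by -1.95 in place of -2.97. Among collagen chains and elastin 8 genes passed, and 7 without a filter, with median centring or without day 3 replicate 2, day 5 replicate 2 or day 5 replicate 3. The 18 calls among other collagen assembly genes became between 13 (no filter) and 20 (edgeR, DESeq2), and the 12 among oxygen-response genes 11 without any day 5 library, when CA9 was not tested. Depth limits what can be said of P4HA3 and LOX.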

Other observations

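COL1A1, which with COL1A2 makes up type I collagen, a substrate of these enzymes, had a mean value of 521 ± 42.1 on day 3 and 1129 ± 33.2 on day 5 (SD, n = 3 each; log2 fold change 1.12, limma adjusted p = 0.000289), while COL1A2 was at 19.9 ± 6.48 and 15.5 ± 7.38 and did not pass (limma adjusted p = 0.4). COL3A1 was at 10.7 ± 2.43 and 16.5 ± 12.7 and did not pass either.

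LOXL1-AS1, transcribed from the strand opposite LOXL1, went from 208 ± 29.3 to 383 ± 26.2 (log2 fold change 0.88, limma adjusted p = 0.00164), while LOXL1 itself did not pass; the difference between them was not tested, and counting was stated to use strand. P4HTM, a transmembrane relative of the prolyl 4-hydroxylases that acts on HIF, went from 911 ± 26.5 to 1297 ± 79.8 (log2 fold change 0.51, limma adjusted p = 0.00269). P4HTM and the collagen I chains were singled out after their values were seen.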
